A study of Mus musculus and Rattus norvegicus with 26 samples.

Results

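The genes described here are splicing factors and other RNA-binding proteins that carried intronic reads in neurons, brown adipose tissue (BAT) cells and cardiomyocytes. They are all genes of the 6 intronic contig lists whose symbol begins with Srsf, Sfrs, Hnrn, Rbm, Celf, Mbnl, Elavl, Ptbp, Nova, Rbfox, Sf3 or Prpf. The rule uses names only and gave 96 of the 13695 gene symbols, 785 of the 85860 introns and 1015 of the 112345 contigs. A contig is a stretch of an intron covered by clustered reads. Rbms1, Rbms2 and Rbms3, which bind single-stranded nucleic acid, entered through the same letters as the RNA-binding motif (Rbm) genes.

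The labels assign 26 libraries to 6 lists, each pooled by the authors over a condition. Mouse neurons were primary hippocampal cultures from C57BL/6 embryos, and rat neurons from Sprague-Dawley embryos, both at embryonic day 18. Dendrites were cut from the cells mechanically and hold no nucleus, whereas somas do. There were 3 mouse dendrite, 3 mouse soma, 2 rat dendrite and 3 rat soma libraries. BAT cells (6 libraries) came from interscapular fat of CD-1 mice at embryonic day 17.5 and were recognised by their shape in culture. Cardiomyocytes (9 libraries) came from ventricles of hemizygous Fucci embryos on C57BL/6 at embryonic day 14.5. Fucci is a fluorescent reporter of the cell cycle, and these cells were sorted by flow cytometry for fluorescence and viability. All samples went through 3 rounds of aRNA amplification, which copies RNA from its poly(A) tail with a poly(T) primer and a T7 promoter. No condition carried a gene deletion or a drug treatment. Each dendrite library was a batch of many dissected dendrites, whereas each soma, BAT and cardiomyocyte library was a single cell, so the kind of input cannot be told apart from the compartment. For BAT and cardiomyocytes the number of cells in the study text is lower than the number of labelled libraries, and it is not certain that all of these libraries were used.

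Splicing removes introns in the nucleus. The U small nuclear ribonucleoproteins (snRNPs) recognise the splice sites, and the Sf3 and Prpf proteins are parts of them. SR proteins (Srsf and the older Sfrs symbols) mostly favour the use of nearby exons, while hnRNP and Ptbp proteins often repress them. Rbfox, Mbnl, Celf, Nova and Elavl proteins set tissue-specific splicing and, in part, the stability and place of mRNAs. Many genes of these families limit their own expression through alternative exons or retained introns, which makes their introns of interest in a study of cytoplasmic intron-sequence retaining transcripts.

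Each list is a single pool, so no spread between libraries could be computed and no test between conditions was possible. Values below are raw reads, counted 1 time for each transcript and intron, or reads per 1000000 listed intron reads of the same list (rpm). The lists summed to 3086576 reads in mouse dendrites, 1855447 in mouse somas, 1007530 in rat dendrites, 2094541 in rat somas, 17858440 in BAT cells and 12201042 in cardiomyocytes. Intervals are 95% intervals and cover counting error only, not the spread between cells. A gene without a contig is given as not listed, because the lists hold only introns that passed the filters of the authors. Reads were not divided by intron length, so they are compared between lists for the same gene. Where a gene or intron is named for its high reads, this also depends on its length. In these pooled sums fewer cells with an RNA and less RNA per cell cannot be told apart.

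The lists were checked against markers of the labelled cells. Of 9 neuronal markers, 7 were listed in mouse dendrites (1313 rpm in sum), 8 in mouse somas (8444 rpm), 4 in rat dendrites (1649 rpm) and 5 in rat somas (8648 rpm). In BAT cells 6 of them were listed (1039 rpm) and in cardiomyocytes 3 (387 rpm), and Map2 was in none of the lists. Of 9 cardiomyocyte markers, 8 were listed in cardiomyocytes (26468 rpm) without Gata4, 4 in BAT cells (1279 rpm), 6 in mouse dendrites (780 rpm) and 3 in mouse somas (15.6 rpm). Of 7 brown adipocyte markers, 6 were listed in BAT cells (3476 rpm) without Ppargc1a, 4 in cardiomyocytes (825 rpm), 4 in mouse dendrites (152 rpm) and 1 in each of the other lists. Glial markers summed to between 12.9 and 68.5 rpm in the dendrite and rat soma lists and to 3.23 rpm in mouse somas, and Gfap was listed in mouse dendrites only. Of 4 endothelial markers, 3 were listed in mouse somas (729 rpm) and in mouse dendrites (196 rpm), and of 4 fibroblast markers 3 were listed in rat dendrites (319 rpm). In BAT cells all 4 endothelial (183 rpm), all 4 fibroblast (23.0 rpm) and 3 of 5 glial markers (44.2 rpm) were listed, and in cardiomyocytes 2 endothelial markers (288 rpm) and no fibroblast or glial marker. The part of other cell types in the results below was not tested.

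Members were a small share of each list. They made up 58 of 8607 genes in mouse dendrites (0.674%), 49 of 5895 in mouse somas (0.831%), 41 of 4485 in rat dendrites (0.914%), 33 of 3393 in rat somas (0.973%), 69 of 10220 in BAT cells (0.675%) and 57 of 6205 in cardiomyocytes (0.919%). Their reads summed to 14920 in mouse dendrites (0.483% of listed reads), 15604 in mouse somas (0.841%), 4373 in rat dendrites (0.434%), 12348 in rat somas (0.590%), 127217 in BAT cells (0.712%) and 144234 in cardiomyocytes (1.18%). The share of reads was higher in somas than in dendrites in both species. With contigs limited to 400 nt in all lists the mouse shares were 0.690% in dendrites and 1.12% in somas, but the rat shares came to 0.719% and 0.730%, nearly the same. In all counts with this limit an intron that kept a contig kept its full reads, since reads are given per intron. The share of genes with a highly read intron was lower among members than among all genes in both rat lists and higher in the mouse lists. In every list the member interval held the share of all genes. An intron with at least 256 reads was found in 14 members in mouse dendrites (24.1%, interval 15.0 to 36.5, against 23.5% of all listed genes), 10 in mouse somas (20.4%, 11.5 to 33.6, against 18.7%) and 3 in rat dendrites (7.32%, 2.52 to 19.4, against 15.8%). The same was found for 8 in rat somas (24.2%, 12.8 to 41.0, against 30.4%), 32 in BAT cells (46.4%, 35.1 to 58.0, against 40.2%) and 25 in cardiomyocytes (43.9%, 31.8 to 56.7, against 42.9%). With contigs of at most 400 nt the counts fell to 5 in mouse somas (12.2% against 11.6%), 3 in rat somas (10.7% against 14.0%), 19 in BAT cells (30.6% against 25.7%) and 13 in cardiomyocytes (26.5% against 25.5%). With a limit of 32 reads the members reached 69.0%, 65.3%, 43.9%, 48.5%, 71.0% and 71.9% in the same order, against 62.4%, 54.1%, 48.6%, 55.1%, 67.9% and 64.8% of all genes.

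The families did not follow each other across the conditions. The Rbm family held between 32.6% of member reads in BAT cells and 64.4% in mouse dendrites. SR genes summed to 28.8 rpm in mouse dendrites but 2711 rpm in mouse somas, 1931 in BAT cells and 1741 in cardiomyocytes. In rat the SR sums lay closer together, with 617 rpm in dendrites and 739 in somas. Elavl genes summed to 73.2 rpm in mouse dendrites and 1079 in mouse somas, and to 68.5 rpm in rat dendrites and 995 in rat somas. Mbnl genes reached 1914 rpm in cardiomyocytes and 577 in BAT cells, against 475 in rat dendrites, 268 in mouse dendrites and 26.4 in mouse somas, and none was listed in rat somas.

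**Figure D1:**
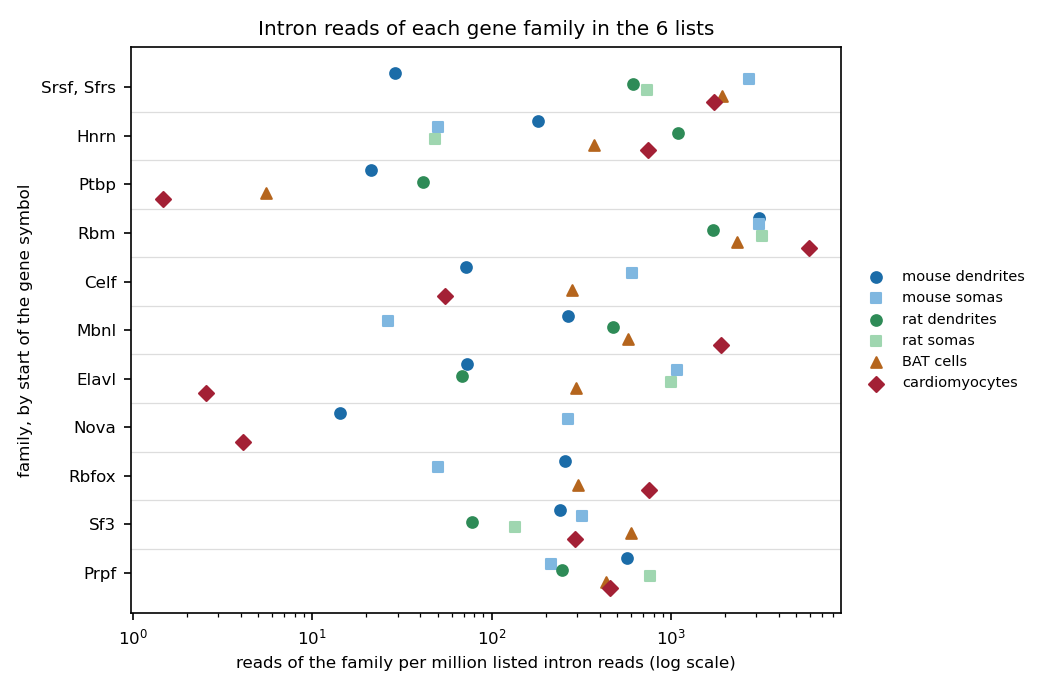
Reads in rpm, summed over a gene family (x axis, log scale), for the 11 families (y axis), with 1 point for each list in which the family was listed. A family without a point for a list was not listed there under these symbols (rat Celf and Rbfox genes carry older ones). SR genes in mouse dendrites (28.8 rpm) lie far to the left of the other lists, and the Elavl points of both soma lists lie to the right of both dendrite lists.

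Among SR and SR-related genes most of the reads in mouse somas, BAT cells and cardiomyocytes came from 1 gene that the lists call Srsf12. Its accession (NM_172592) belongs to Srek1, a splicing regulatory SR-related protein, in the RefSeq table of assembly GRCm38.p6, and the accession called Srsf13b belongs to Srsf12 there. Under the listed name it had 4 reads in mouse dendrites, 4211 in mouse somas, 32465 in BAT cells and 10906 in cardiomyocytes, and it was not listed in rat. The dendrite value stands apart from the other mouse lists. Intron 7 carried 2, 4175, 31905 and 3146 of these reads, and the 4 lists placed a contig on the same 217 bases of it, at chr13:104540395-104540611 (minus strand, NCBIM37, which is mm9). These bases are shown because every mouse list has a contig on them, although the reads in intron 7 ran from 2 to 31905. All sequences are written 5′ to 3′ on the strand of the gene. Capitals mark TTTATTT, a U-rich motif of the kind bound by Elavl proteins.
Srsf12 intron 7: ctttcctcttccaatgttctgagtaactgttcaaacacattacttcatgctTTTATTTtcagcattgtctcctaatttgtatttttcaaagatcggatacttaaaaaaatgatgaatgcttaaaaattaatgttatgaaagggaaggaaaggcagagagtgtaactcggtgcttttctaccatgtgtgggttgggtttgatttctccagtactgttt
None of the 30-base words of the dendrite contig there had another exact copy in the mouse genome. In cardiomyocytes intron 1 (4934 reads) and intron 5 (1990 reads) of the same gene were also listed, and intron 1 carried more reads than intron 7.

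Srsf11, an SR-related protein found at the branch point of early spliceosomes, had 67 reads in mouse dendrites, 406 in mouse somas, 1127 in BAT cells and 10152 in cardiomyocytes. The lists again differed in the intron: intron 1 of NM_001093753 carried 7966 reads in cardiomyocytes and 232 in mouse somas, and intron 7 of NM_026989 carried 1119 in BAT cells. Rat Sfrs11, the same gene under the older symbol, had 45 reads in dendrites and 20 in somas. Sfrs18, which RefSeq calls Pnisr, a nuclear speckle protein rich in serine and arginine, was not listed in mouse dendrites and had 250 reads in mouse somas, 320 in rat dendrites, 1473 in rat somas, 822 in BAT cells and 145 in cardiomyocytes. In rat somas 1470 of these reads lay in intron 6. The best known SR genes, Srsf1, Srsf2 and Srsf3, were not listed under these or their older symbols, and Srsf4, Srsf5 and Srsf6 had at most 29 reads in any mouse list.

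Of 14 hnRNP genes no gene was in all 6 lists. Hnrnpul1, a nuclear protein of the hnRNP U family, had 3451 reads in BAT cells, 432 in mouse dendrites, 36 in mouse somas and 2 in rat dendrites. Hnrnpm, a splicing regulator, had 6307 reads in cardiomyocytes, 644 in BAT cells and 30 in mouse somas. The leading intron of Hnrnpm also differed: intron 15 (5044 reads) in cardiomyocytes and intron 1 (582 reads) in BAT cells. Hnrnpab had 795 reads in rat dendrites, 757 of them in intron 3, against 16 in rat somas, and intron 3 of the mouse gene was the listed intron in BAT cells (439 reads). Hnrnpa2b1, which binds RNAs that are carried into dendrites and axons, had 43 reads in rat dendrites, 32 in rat somas and 377 in BAT cells and was not listed in mouse neurons. Ptbp1, the general repressor of neuronal exons, was listed in rat dendrites only (42 reads), and its neuronal relative Ptbp2 had 66 reads in mouse dendrites, 98 in BAT cells and 18 in cardiomyocytes.

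Counted by listed symbol, the 34 Rbm symbols held 5 of the 10 members found in all 6 lists. These were Rbm5, Rbm6, Rbm33, Rbm39 and Rbm41, beside Sf3 and Prpf genes such as Sf3b2, Sf3b3, Prpf6 and Prpf8. Such symbols made up 10.4% of member symbols and 6.24% of all symbols. Rbfox2, Srsf11 and Celf2 were in all 6 lists too but are not counted, since rat lists them as Rbm9, Sfrs11 and Cugbp2. Rbm5, a splicing regulator of apoptosis genes, had 419 reads in mouse dendrites, 320 in mouse somas, 1127 in rat dendrites, 2098 in rat somas, 951 in BAT cells and 3907 in cardiomyocytes. Its neighbour and relative Rbm6 had 1036, 332, 132, 161, 1995 and 3612 reads in the same order. Rbm39, a splicing coactivator related to the large subunit of U2AF, had 410, 643, 65, 1193, 3510 and 12271 reads. Rbm41, a protein of the minor spliceosome, had 1036 reads in mouse dendrites but 55 in mouse somas, 6 in rat dendrites, 4 in rat somas, 154 in BAT cells and 85 in cardiomyocytes. Rbm33 had 317, 34, 264, 87, 2241 and 254 reads.

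Rat Rbm5 is a gene for which the study designed primers for a junction inside intron 8, at which separate parts of that intron are joined, and these are shown with the reads of the gene's introns. In rat dendrites 1034 reads lay in intron 4, 59 in intron 5 and 34 in intron 6. In rat somas intron 4 had 476 reads, intron 5 had 582, intron 6 had 172, intron 8 had 813 and intron 9 had 55. The dendrite list thus led with intron 4 and the soma list with intron 8, which was not listed in dendrites. Mouse Rbm5 led with intron 4 in dendrites (407 reads) and cardiomyocytes (3153) and with intron 24 in somas (200) and BAT cells (913). The designed primer pairs for intron 8 were as follows, with no capitals set.
Rbm5 left primer, around the junction: caagcttgaggacctgtgttc
Rbm5 right primer, around the junction: ctgccatgcctctctagcac
Rbm5 left primer, left primer on the junction: aaaagtaggcagggcatggt
Rbm5 right primer, left primer on the junction: acggagaagtccatgtctgg

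Rbm25, a U1-associated regulator of 5′ splice sites, was listed in the 4 mouse lists with 447 reads in dendrites, 404 in somas, 7865 in BAT cells and 26851 in cardiomyocytes. Its intron 9 was the member intron with the most reads in cardiomyocytes (22314) and had 115 reads in mouse dendrites, 402 in somas and 6103 in BAT cells. The 4 lists shared 918 bases of this intron, from chr12:85004011-85004928 on the plus strand, which reach to its 3′ end. The last 150 bases, chr12:85004779-85004928, are printed because every contig set ends exactly at the splice site, and capitals mark a run of adenines and the closing AG.
Rbm25 intron 9: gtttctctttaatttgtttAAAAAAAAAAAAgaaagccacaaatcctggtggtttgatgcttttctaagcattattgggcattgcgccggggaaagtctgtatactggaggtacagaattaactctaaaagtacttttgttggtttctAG
None of the 30-base words of the Rbm25 intron 9 contigs occurred elsewhere in the genome.

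Rbms3 had 3334 reads in mouse dendrites, 1216 in mouse somas, 5598 in BAT cells and 5716 in cardiomyocytes. Intron 11 of NM_178660 carried 1678 reads in mouse dendrites, the most of any member intron there, 302 in BAT cells and 2 in somas. Dendrites and BAT cells shared 289 bases of it, chr9:116532965-116533253 (minus strand), and a cardiomyocyte contig listed under intron 12 of NM_001172123 (3095 reads) covered the same place from 116532682 to 116533427. The stretch is shown as part of the member intron with the most dendrite reads, with the Rbfox motif TGCATG and the Mbnl motif GCTTGC in capitals.
Rbms3 intron 11: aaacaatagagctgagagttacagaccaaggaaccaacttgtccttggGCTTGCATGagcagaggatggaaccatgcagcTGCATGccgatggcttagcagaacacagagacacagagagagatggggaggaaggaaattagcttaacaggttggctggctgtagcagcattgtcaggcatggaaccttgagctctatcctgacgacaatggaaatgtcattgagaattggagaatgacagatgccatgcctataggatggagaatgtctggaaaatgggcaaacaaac
Rbms1 had 773 reads in dendrites, 758 in somas, 6533 in BAT cells and 181 in cardiomyocytes. Rbm47, an RNA-binding partner of the cytidine deaminase Apobec1, had 1118 reads in mouse dendrites, all in a 380-nt contig of intron 6, and 4 in somas. In that dendrite contig 152 of 351 words of 30 bases had another exact copy in the genome. Rbm10, a relative of Rbm5, had its reads in intron 2, with 139 in dendrites, 1381 in somas, 407 in BAT cells and 2 in cardiomyocytes. Rbm17, which takes part in the choice of 3′ splice sites, had 8130 reads in BAT cells and at most 79 in any other list.

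Sf3 and Prpf genes are general parts of the spliceosome. Sf3b1, the U2 protein that holds the branch site, had 242 reads in mouse dendrites, 96 in mouse somas, 3 in rat dendrites, 8789 in BAT cells and 519 in cardiomyocytes, and 8234 of the BAT reads lay in intron 5. Its partner Sf3b3 had 112 reads in mouse dendrites, 365 in mouse somas, 58 in rat dendrites, 38 in rat somas, 792 in BAT cells and 12 in cardiomyocytes. Sf3b2 of the same complex had 192 reads in mouse dendrites, 4 in mouse somas, 15 in rat dendrites, 244 in rat somas, 560 in BAT cells and 62 in cardiomyocytes. Sf3a3 had 1904 reads in cardiomyocytes. Prpf6, which bridges snRNPs, had 588 reads in mouse dendrites, 178 in mouse somas, 96 in rat dendrites, 8 in rat somas, 691 in BAT cells and 422 in cardiomyocytes. Prpf8, the core protein of the catalytic centre, had 297, 14, 14, 8, 49 and 6 reads in the same order. In both species Prpf6 and Prpf8 had higher rpm in dendrites than in somas.

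Among the tissue-specific regulators Nova2, which controls neuronal exons, had 44 reads in mouse dendrites, 492 in mouse somas and 50 in cardiomyocytes. Elavl1, the widely expressed member of its family, had 116 reads in mouse dendrites, 174 in mouse somas, 5169 in BAT cells and 31 in cardiomyocytes. The neuronal Elavl2 had 86 reads in mouse dendrites, 1772 in mouse somas, 34 in rat dendrites, 737 in rat somas and 76 in BAT cells. Elavl3, also neuronal, had 24 and 56 reads in mouse dendrites and somas, 1339 in rat somas, all in intron 1, and 2 in BAT cells. Elavl4 was listed in rat only, with 35 reads in dendrites and 8 in somas. Elavl2 and Elavl3 were not listed in cardiomyocytes.

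Rbfox1, found mainly in neurons and muscle, had 514 reads in mouse dendrites, 31 in mouse somas and 3875 in BAT cells. It was not listed in cardiomyocytes, where the more widely expressed Rbfox2 had 9182 reads, 8970 of them in intron 3. Rbfox2 had 277 reads in mouse dendrites, 9 in mouse somas and 1567 in BAT cells, and the rat gene, listed as Rbm9, had 8 in dendrites and 1962 in somas. Of the BAT reads 1509 lay in intron 9, where a contig overlapped an opposite-strand exon of the noncoding RNA 1700109K24Rik by 462 bases. The libraries were not strand specific, so reads of the strands cannot be told apart. Rbfox3, which encodes the neuronal marker NeuN, was listed in mouse somas only (53 reads). Rat Rbfox1 is outside the counts because the list calls it A2bp1 (1072 reads in rat dendrites). Rat Celf1 and Celf2 are outside them for the same reason: Cugbp2 (Celf2) had 598 reads in rat dendrites and 1498 in rat somas.

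Mbnl2 and Celf2 belong to families with opposed actions on many exons in developing heart and brain. Mbnl2 had 281 reads in mouse dendrites, 49 in mouse somas, 479 in rat dendrites, 9812 in BAT cells and 23268 in cardiomyocytes. Celf2 had 131 reads in mouse dendrites, 724 in mouse somas, 4735 in BAT cells and 140 in cardiomyocytes, where Celf1 had 530. Mbnl3 had 547 reads in mouse dendrites. The muscle splicing factors Rbm20 and Rbm24, named after their values were seen, had 873 and 6872 reads in cardiomyocytes, 112 and 1 in BAT cells, and were not listed in neurons. Most Rbm24 reads (6363) lay in intron 3.

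**Figure D2:**
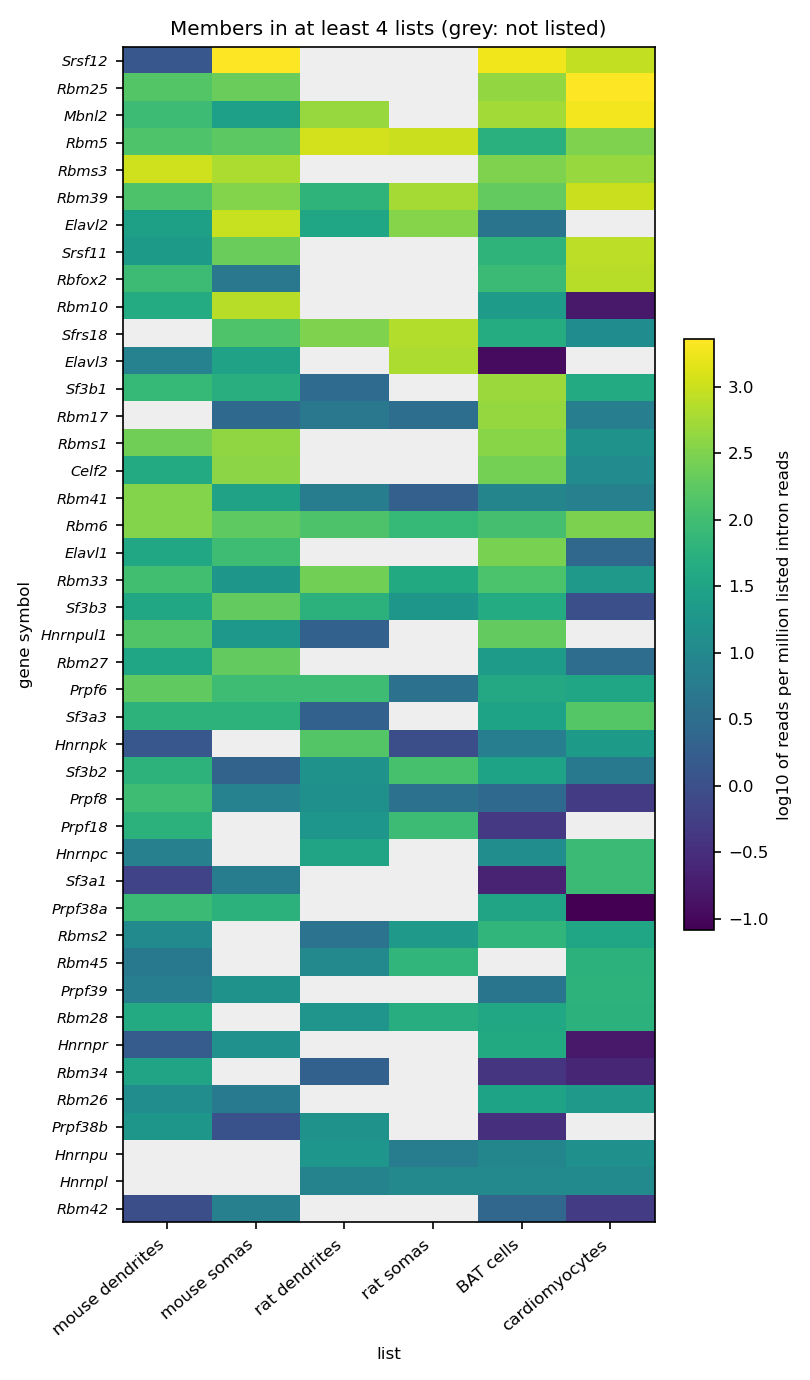
Reads in rpm (colour, log10 scale) of 43 member symbols found in at least 4 lists (y axis) in each of the 6 lists (x axis), ordered by their highest value, with grey where a symbol was not listed. Srsf12 is dark in mouse dendrites (4 reads) and bright in mouse somas (4211 reads), and the grey cells of the rat columns include genes listed there under older symbols.

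The comparison of dendrites with somas asks which intron sequences are found outside the cell body. In mouse, 41 of 66 members were in both lists (62.1%, interval 50.1 to 72.9, against 48.5% of all genes), 17 in the dendrite list only (25.8% against 39.6%) and 8 in the soma list only (12.1% against 11.8%). Of the 41 members, 10 were at least 4-fold higher in dendrites (33.2% of all 4739 genes in both lists were) and 13 at least 4-fold higher in somas (24.9% of all genes). The median log2 ratio of dendrites over somas was -0.35 for members and 0.27 for all genes. The 3 members with the most reads among those higher in dendrites were Rbm47, at 362 rpm against 2.16 (168-fold, interval 65.4 to 618), Rbm41, at 336 against 29.6 (11.3-fold, 8.63 to 15.1), and Rbfox1, at 167 against 16.7 (9.97-fold, 6.93 to 14.8). Among those higher in somas they were Srsf12, at 2270 rpm against 1.30 (1751-fold, 683 to 6430), Elavl2, at 955 against 27.9 (34.3-fold, 27.6 to 43.1), and Rbm10, at 744 against 45.0 (16.5-fold, 13.9 to 19.8). For Rbm47 and Srsf12 the lower value rests on 4 reads.

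In rat, 30 of 44 members were in both lists (68.2%, interval 53.4 to 80.0, against 37.9% of all genes), 11 in the dendrite list only (25% against 40.6%) and 3 in the soma list only (6.82% against 21.5%). Of the 30, 9 were at least 4-fold higher in dendrites (35.7% of all 2166 genes) and 9 at least 4-fold higher in somas (24.6%). Since the median log2 ratio of all genes was 0.73, the split became 6 and 10 when the lists were scaled to that median (27.5% and 30.4% of all genes). With soma contigs of at most 400 nt it became 7 and 5 of 26 members (30.5% and 23.5% of all genes). Higher in rat dendrites were Hnrnpab, at 789 rpm against 7.64 (103-fold, 63.2 to 182), Rbm33, at 262 against 41.5 (6.31-fold, 4.93 to 8.13, and under 4-fold relative to that median), and Sfrs15, which RefSeq calls Scaf4, at 184 against 0.955 (192-fold, 52.5 to 1600, with 2 soma reads). Among those higher in rat somas were Rbm9, at 937 rpm against 7.94 (118-fold, 59.8 to 274), and Rbm39, at 570 against 64.5 (8.83-fold, 6.88 to 11.5). Rbm9 is Rbfox2, which in mouse had 277 reads in dendrites against 9 in somas, and so lay on the other side.

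The species lists overlapped in part. Members were taken by their listed symbol, and older symbols among them were then joined to current ones. On this count 25 members were in both dendrite lists, which is 43.1% of the mouse and 61.0% of the rat members. For all genes, with every older symbol joined, the shares were 32.2% and 61.7%. Rbfox1 and Celf2 were in both dendrite lists too but are left out of the member count, since rat lists them as A2bp1 and Cugbp2. The soma lists shared 16 members, 32.7% of mouse and 48.5% of rat, against 30.2% and 52.5%. Celf1, Celf2 and Celf6 were in both soma lists too but are left out, since rat lists them as Cugbp1, Cugbp2 and Brunol6. Rat introns were also matched to the 4 mouse lists, BAT cells and cardiomyocytes included, where the gene was in any of these lists. Of 90 such rat member introns, 43 (47.8%, interval 37.8 to 58.0) had the same symbol and intron number in a mouse list. For all such rat introns the share was 50.4%. Intron numbers can differ between gene models, so this is a count of labels. On the same count 13 members were in all 4 neuronal lists. This leaves out Celf2 (Cugbp2 in rat), with 131 reads in mouse dendrites, 724 in mouse somas, 598 in rat dendrites and 1498 in rat somas. Of the 13, 7 had a ratio of dendrites over somas on the same side in both species (53.8%, interval 29.1 to 76.8, against 51% of 1093 genes). Among them were Elavl2, over 4-fold higher in somas in both, and Rbm33, over 4-fold higher in dendrites in both, though in rat not relative to the median. Rbm5, with log2 ratios of -0.35 and 0.16, comes to the same side when each ratio is read against its median. Past 4-fold in opposite directions were 3 members, Rbfox2, Sf3b2 and Srsf11 (23.1%, 8.18 to 50.3, against 15.5% of all genes). Read against the medians Srsf11 in rat is under 4-fold, which leaves 2 of 13 members (15.4% against 14.5%).

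BAT cells and cardiomyocytes are non-neuronal cells taken whole, with their nuclei. Of 76 members 50 were in both lists (65.8% against 49.5% of all genes), 19 in the BAT list only (25% against 43.5%) and 7 in the cardiomyocyte list only (9.21% against 6.95%). Of the 50, 17 were at least 4-fold higher in BAT cells (34.3% of all 5442 genes) and 16 at least 4-fold higher in cardiomyocytes (28.3%), and the median log2 ratio was 0.078 for members and 0.32 for all genes. Higher in BAT cells were Sf3b1, at 492 rpm against 42.5 (11.6-fold, 10.6 to 12.7), Rbm17, at 455 against 6.47 (70.3-fold, 56.3 to 88.9), and Rbms1, at 366 against 14.8 (24.7-fold, 21.3 to 28.7). Elavl1 was at 289 rpm against 2.54 (114-fold, 80.2 to 168). Higher in cardiomyocytes were Rbm25, at 2201 rpm against 440 (5.00-fold, 4.87 to 5.12), Rbm39, at 1006 against 197 (5.12-fold, 4.93 to 5.31), and Srsf11, at 832 against 63.1 (13.2-fold, 12.4 to 14.0). Rbm24 was at 563 rpm against 0.056, and its ratio of 10058 (interval 1805 to 397343) rests on 1 BAT read. The strains, ages, culture and sorting of the cells differ along with the cell type and cannot be told apart from it.

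**Figure D3:**
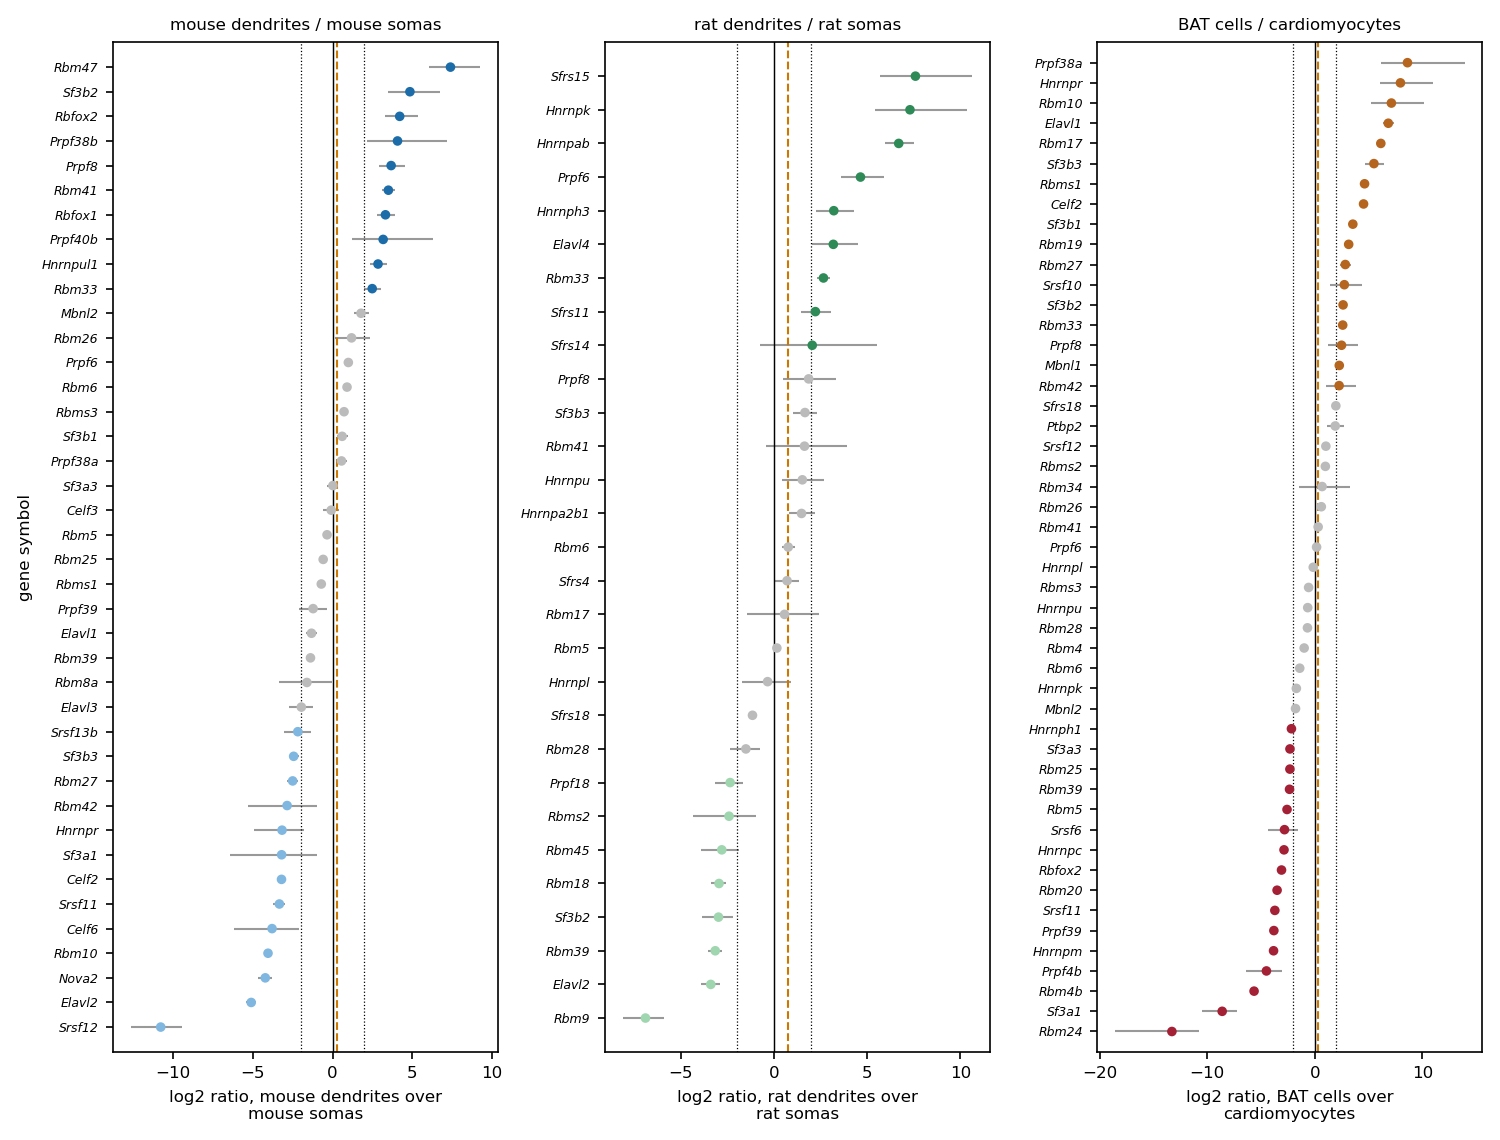
Log2 ratio of reads in rpm (x axis) for members (y axis) in both lists of a comparison: mouse dendrites over somas, rat dendrites over somas, and BAT cells over cardiomyocytes. Bars are 95% intervals of counting error, dotted lines mark 4-fold, the dashed line is the median over all genes and coloured points are members past 4-fold. In the mouse panel Rbm47 (168-fold) and Srsf12 lie at the ends, and in the rat panel Sfrs15 and Rbm9 do.

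A part of the introns recurred across the mouse lists. Of 82 mouse members, 29 (35.4%, interval 25.9 to 46.2) were in all 4 mouse lists, against 24.6% of all genes. Introns were matched by accession and intron number. Of 373 member introns, 192 were in 1 list (51.5%, against 60.5% of all introns), 104 in 2 (27.9% against 25.7%), 60 in 3 (16.1% against 10.1%) and 17 in all 4 (4.56%, 2.86 to 7.18, against 3.70%). Matched by annotated position instead, 19 of 371 member introns (5.12% against 3.72%) were in all 4 lists, the others being 2 introns of Rbms3 that are listed under different accessions. The 17 introns lay in 14 genes, and Celf2, Rbm6 and Srsf12 had more than 1 intron each. For 4 of them, Rbm41 intron 5, Rbm25 intron 9, Prpf6 intron 2 and Srsf12 intron 7, contigs of every pair of lists overlapped. For 2, Celf2 intron 5 and Rbfox2 intron 1, contigs overlapped in no pair. Over all shared member introns and pairs of mouse lists, contigs overlapped in 240 of 386 cases (62.2%, 57.2 to 66.9, against 53.5% for all introns). The share was 89 of 108 for BAT cells with cardiomyocytes (82.4%, 74.2 to 88.4, against 65.3%) and 33 of 53 for mouse dendrites with somas (62.3%, 48.8 to 74.1, against 58.0%). It was 48.6% against 44.1% for dendrites with BAT cells, 43.2% against 44.9% for dendrites with cardiomyocytes, 52.5% against 52.4% for somas with BAT cells and 67.4% against 59.8% for somas with cardiomyocytes, and in these 4 pairs the member interval held the share of all introns. Cases of the same intron in several pairs are not independent.

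**Figure D4:**
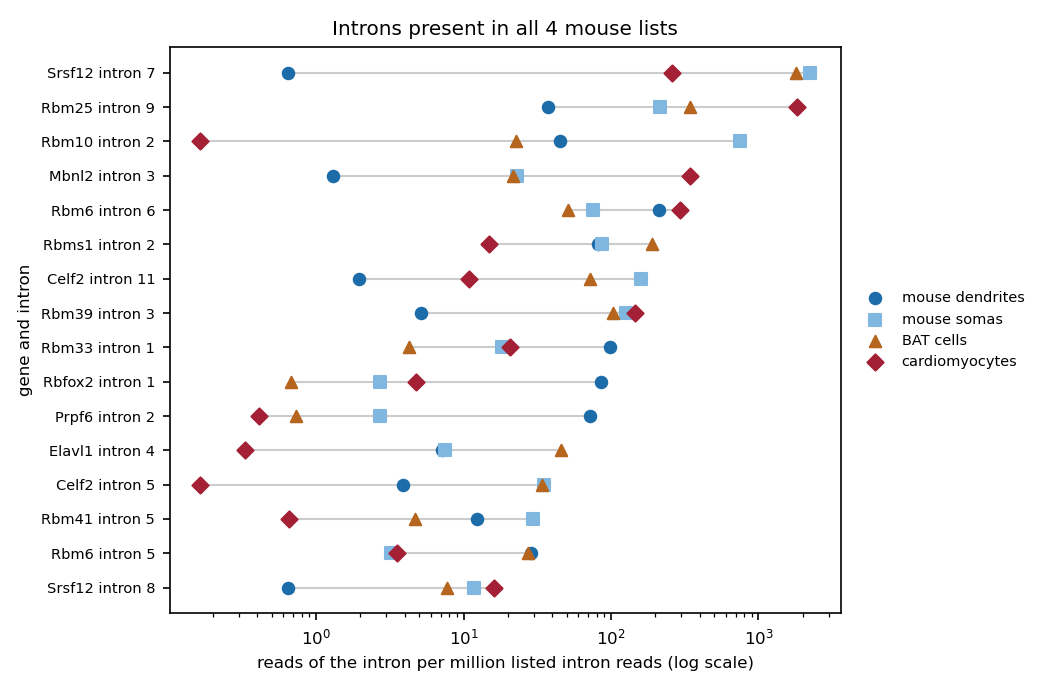
Reads in rpm (x axis, log scale) for 16 member introns present in all 4 mouse lists (y axis), 1 point for each list, with a grey line over their range. Srsf12 intron 7 spans from 0.648 rpm in mouse dendrites to 2250 rpm in somas, and Rbm6 intron 6 has a much narrower range, from 51.3 to 292 rpm.

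The reads of these introns ranged widely, also where contigs of few or no pairs overlapped. Rbm6 intron 6 had 652 reads in dendrites, 140 in somas, 917 in BAT cells and 3560 in cardiomyocytes. Mbnl2 intron 3 had 4, 43, 388 and 4199 reads in the same order. Its dendrite and soma contigs lay on the noncoding RNA Gm16661 of the opposite strand over 214 and 490 bases. Rbfox2 intron 1 and Prpf6 intron 2 were highest in dendrites, with 263, 5, 12 and 58 and with 223, 5, 13 and 5 reads.

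Overlap of contigs did not by itself mean that the place was unique in the genome. The 4 lists shared 49 bases of Prpf6 intron 2, chr2:181344772-181344820 (plus strand), and the cardiomyocyte contig around it, chr2:181344767-181344895, is printed with these 49 bases in capitals.
Prpf6 intron 2: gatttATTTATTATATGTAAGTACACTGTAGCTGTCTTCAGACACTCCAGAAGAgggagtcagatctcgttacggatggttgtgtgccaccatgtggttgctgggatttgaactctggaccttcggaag
Every 30-base word of that contig had other exact copies in the mouse genome, the most frequent at 23119 places. In Rbm41 intron 5 the shared 251 bases, chrX:136493896-136494146 (minus strand), were less repeated: 75 of 224 words of the cardiomyocyte contig had copies, at most at 8 places. TAGGG, a motif of Hnrnpa1, and CACACA, a motif of Hnrnpl, are in capitals.
Rbm41 intron 5: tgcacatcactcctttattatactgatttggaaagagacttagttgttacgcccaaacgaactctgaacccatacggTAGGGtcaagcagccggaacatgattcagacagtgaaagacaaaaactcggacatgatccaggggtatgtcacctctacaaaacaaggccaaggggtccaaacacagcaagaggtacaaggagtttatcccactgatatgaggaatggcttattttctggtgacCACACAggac
In all, the contigs without any copied 30-base word were 100 of 187 in mouse dendrites (53.5%), 70 of 135 in mouse somas (51.9%), 224 of 358 in BAT cells (62.6%) and 109 of 190 in cardiomyocytes (57.4%). The authors kept uniquely mapped reads, and the effect of repeated words on the reads of a contig was not tested.

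Rbm39 was the sole member whose contigs touched an exon of a transcript annotated for nonsense-mediated decay. Such contigs numbered 1 in mouse dendrites (0.535% of member contigs, interval 0.0945 to 2.97, against 0.189% of all contigs), 1 in somas (0.741%, 0.131 to 4.08, against 0.333%), 2 in BAT cells (0.559%, 0.153 to 2.01, against 0.338%) and 4 in cardiomyocytes (2.11%, 0.822 to 5.29, against 0.517%). In intron 3 a cardiomyocyte contig coincided base for base with a 72-nt exon at chr2:155999833-155999904 (minus strand), and the soma contig, 155999832 to 156000280, ended within 1 base of it. Exons of transcripts annotated as protein coding and as retained intron also overlap this stretch. The contigs of dendrites and BAT cells in this intron lay elsewhere. The exon is shown in capitals between 40 bases on either side, chr2:155999793-155999944.
Rbm39 intron 3: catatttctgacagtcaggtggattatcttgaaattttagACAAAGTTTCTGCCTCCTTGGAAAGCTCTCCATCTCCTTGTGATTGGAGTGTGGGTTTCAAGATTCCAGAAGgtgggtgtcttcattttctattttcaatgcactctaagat
The reads of intron 3 were 16 in dendrites, 235 in somas, 1834 in BAT cells and 1769 in cardiomyocytes, summed over all contigs of the intron, so the reads of the exon alone are not known. Contigs on any annotated exon were 6 of 187 in mouse dendrites (3.21%, against 5.04% of all contigs), 8 of 135 in mouse somas (5.93% against 9.62%), 26 of 358 in BAT cells (7.26% against 7.54%) and 17 of 190 in cardiomyocytes (8.95% against 11.4%). On opposite-strand exons lay 0.535%, 0.741%, 0.279% and 0% of member contigs in the same order, against 0.749%, 1.16%, 0.834% and 1.43% of all contigs.

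**Figure D5:**
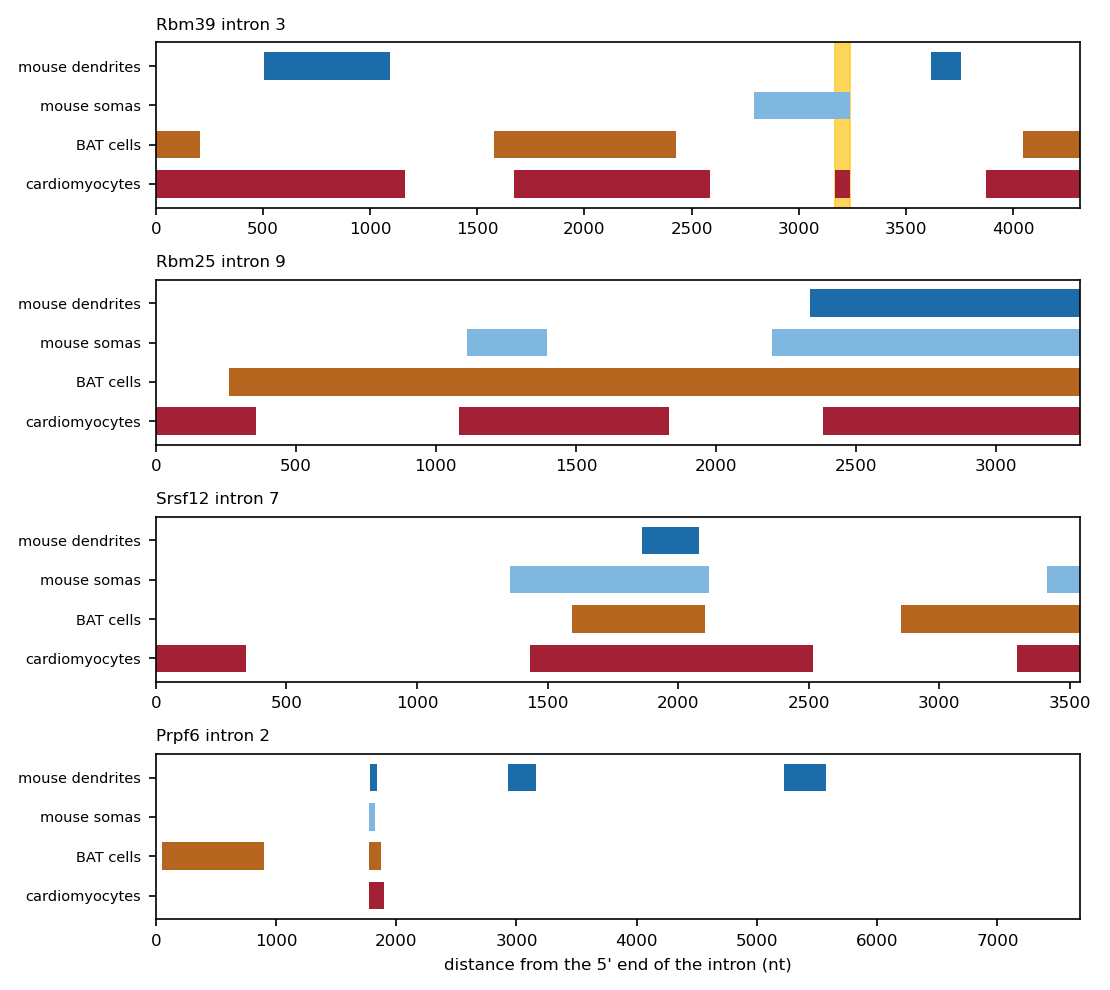
Contigs (bars) of the 4 mouse lists along intron 3 of Rbm39, intron 9 of Rbm25, intron 7 of Srsf12 and intron 2 of Prpf6, by distance from the 5′ end of the intron in nt (x axis, a separate scale for each intron). The yellow band marks the 72-nt exon of Rbm39. In Rbm25 the bars of all lists reach the 3′ end, and in Prpf6 the bars common to all lists are 49 bases at their intersection.

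A number of short introns were covered from end to end by a contig. The authors joined reads within 500 nt into a contig. In an intron of at most 300 nt, reads at both ends therefore give full cover, even without reads in between. Member introns of this length had a median of 12 reads in BAT cells and 20 in cardiomyocytes. Whether reads lay along the whole intron was not tested. In BAT cells 54 of 246 member introns were covered within 1 base of both ends (22.0%, interval 17.2 to 27.5, against 11.1% of all introns), and in cardiomyocytes 31 of 149 (20.8%, 15.1 to 28.0, against 10.1%). In mouse dendrites it was 2 of 122 (1.64% against 0.808%) and in mouse somas 2 of 103 (1.94% against 2.13%). Listed member introns were shorter than the listed introns of all genes, with medians of 1794 against 2744 nt in BAT cells and 1546 against 2762 nt in cardiomyocytes. Within introns of at most 300 nt, 81.8% of members and 76.3% of all were covered in BAT cells, and 82.6% and 68.5% in cardiomyocytes, with member intervals of 68.0 to 90.5 and 62.9 to 93.0. Hnrnpu had 7 of 8 listed introns covered in cardiomyocytes and Sf3b2 7 of 12 in BAT cells. Rbm42 intron 9 was covered in 3 lists, and no member intron was covered in more. The 87 bases of the Rbm42 intron, chr7:31426240-31426326 (minus strand), are shown whole, with the splice dinucleotides in capitals.
Rbm42 intron 9: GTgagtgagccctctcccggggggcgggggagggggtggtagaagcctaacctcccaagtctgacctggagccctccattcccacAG

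Listed and other introns differed in length. Over the transcripts matched to the annotation, 360 of 1172 member introns were in a mouse list (30.7%, interval 28.1 to 33.4), against 28.8% of all introns. Of introns up to 300 nt, 19.8% of members (15.4 to 25.1) and 10.1% of all were listed, and of introns over 10000 nt, 23.9% (17.5 to 31.8) and 38.8%. Between 3000 and 10000 nt the shares were 47.2% and 46.7%. A run of at least 10 adenines, where the poly(T) primer could start, was found in 29.4% of listed member introns (25 to 34.3) and 20% of introns of the member transcripts that were not listed, against 36.5% and 17.0% for all genes. By list the listed introns of members and of all genes stood at 45.1% and 47.2% in mouse dendrites, 53.4% and 53.6% in somas, 27.6% and 37.9% in BAT cells, and 34.2% and 44.0% in cardiomyocytes. First introns made up 5.56% of the listed member introns and 7.37% of all listed introns.

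Motifs of the member proteins were counted in windows of 300 nt on the gene strand, each centred on a contig of a member. Where a contig is shorter than 300 nt, the window also holds sequence beside the contig. The median member contig was 257 nt in mouse dendrites, 288 in mouse somas, 273.5 in BAT cells and 298 in cardiomyocytes. TGCATG (Rbfox) was in 16.3% of member windows in cardiomyocytes (interval 11.7 to 22.2) against 10.3% of all windows, and in 7.49% in mouse dendrites (4.51 to 12.2) against 10.8%. TTTATTT (Elavl) was in 28.3% in mouse dendrites (22.4 to 35.2) against 21.1%, and in 17.3% in BAT cells (13.8 to 21.6) against 17.8%. GAAGAA (SR proteins) was in 17.3% in BAT cells (13.8 to 21.6) against 13.5%, but in whole contigs in 14.5% against 15.0%, and in mouse dendrites (11.8% against 12.4%) and somas (11.9% against 13.3%) members lay below all windows. CACACA (Hnrnpl) was in 8.95% in cardiomyocytes (5.66 to 13.9) against 12.5%. For CTCTCT (Ptbp), TGTTGT (Celf), GCTTGC (Mbnl), TCATCAT (Nova) and TAGGG (Hnrnpa1) the interval of the members held the share of all windows in every mouse list. Of the 36 motif and list pairs, the share of all windows lay outside the member interval in 3, and in 9 the members changed sides against all contigs when whole contigs were searched. A match is a run of letters and not a site of binding.

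Of 52 other splicing and RNA-binding genes, 29 were listed in mouse dendrites, 23 in mouse somas, 19 in rat dendrites, 14 in rat somas, 34 in BAT cells and 29 in cardiomyocytes. In the same order 4, 5, 3, 6, 16 and 14 of the listed ones had an intron with at least 256 reads. Of all listed genes 23.5%, 18.7%, 15.8%, 30.4%, 40.2% and 42.9% had such an intron. Qk, the quaking protein that governs splicing in glia and muscle, was among the 3 with the most reads in 1 intron in every list, with 1899 reads in intron 3 in mouse dendrites, 2107 in intron 3 in mouse somas, 417 in intron 8 in rat dendrites, 5330 in intron 3 in rat somas, 6004 in intron 1 in BAT cells and 16273 in intron 3 in cardiomyocytes. The others were Khdrbs3 intron 7 (517) and Tial1 intron 1 (478) in mouse dendrites, and Srrm1 intron 5 (9826) and Taf15 intron 10 (1870) in mouse somas. In rat dendrites they were Acin1 intron 7 (601) and Sfpq intron 10 (309), and in rat somas Khdrbs2 intron 2 (4917) and Tial1 intron 7 (1154). In BAT cells they were Ddx17 intron 1 (22953) and Taf15 intron 10 (15505), and in cardiomyocytes Tia1 intron 6 (8405) and Clk4 intron 9 (3689). Taf15 intron 10 was thus named in both mouse somas and BAT cells.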

How the data were processed

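Intronic reads were measured in 26 aRNA-amplified libraries. The authors aligned the reads to mm9 or rn4 (builds named in the submitters' processing notes), kept unique intronic reads, clustered them within 500 nt into contigs and pooled the libraries of a condition. The deposited values are raw read counts per intron, without normalization. The tables hold 0 columns of other samples.

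From these, counts were taken once for each transcript and intron and divided by the listed total for rpm. Positions, which the headers count from 0, were shifted to count from 1. Unlike starts alone, both ends were shifted, since contig ends then meet annotated intron ends. Of 101 member transcripts in mouse, 97 were matched to the NCBIM37 annotation (96.0%), and 100 of 101 accessions to the RefSeq table. Shares carry Wilson intervals, and ratios carry exact conditional binomial intervals. Each list is 1 pool, so nothing was tested. Python 3.11.15, pandas 2.3.3, numpy 2.4.6, scipy 1.17.1, pysam 0.24.0 and matplotlib 3.10.9 were used, and the ratio script was tested on simulated data with 200 changed genes.

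Members, gene lists and markers were chosen with earlier results of these data known. The named genes are, for each list, the 3 members with the most reads in 1 intron and the leading member of each family. They also include members in all 6 lists or with an intron in all 4 mouse lists, the 3 members with the most reads past 4-fold in each direction, Rbm5, Sfrs11, and members on an exon of a nonsense-mediated decay transcript. Of the other splicing genes, the 3 with the most reads in 1 intron were named in each list. Further genes are named to account for a family. The alternatives were a minimum of 8 reads, contigs of at most 400 nt, a threshold of 32 reads, 2-fold, scaling to the median ratio, overlap of contigs, other exon classes, tracts of 8 adenines and whole contigs for motifs. A tolerance of 10 bases at intron ends, words of 20 bases, the 400-nt limit for dendrites and matching of introns by position were added after seeing the data. Depth per library, library-level values and rat genome sequence were not used here. 1 member is included in the counts but is not reported here by name or drawn.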

Additional observations from a re-analysis of the deposited data

Results flagged for a closer look

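The ratio of dendrites over somas lay past 4-fold in opposite directions in mouse and rat for 3 of 13 members (23.1%, interval 8.18 to 50.3), against 15.5% of the 1093 genes in all 4 neuronal lists. The 13 leave out Celf2, which was also in all 4 neuronal lists but is called Cugbp2 in rat, outside the name rule. For Rbfox2, a regulator of tissue-specific exons that the rat lists call Rbm9, the log2 ratio was 4.21 in mouse and -6.88 in rat. For Sf3b2, a subunit of the U2 complex at the branch site, it was 4.85 in mouse and -2.97 in rat. For Srsf11, an SR-related protein, it was -3.33 in mouse and 2.23 in rat, and the rat value is under 4-fold when read against the median log2 ratio of all rat genes (0.73), which leaves 2 of 13 members (15.4%, against 14.5% of all genes with both species read against their medians). The difference between the species was not tested, since each value comes from 1 pooled list in each arm. Most Sf3b2 reads lay in intron 4 in mouse dendrites (170 reads) and in intron 15 in rat somas (240 reads), and most Rbfox2 reads in intron 1 in mouse dendrites (263 reads) and in intron 4 in rat somas (1744 reads). For Srsf11 intron 5 held 57 of 67 reads in mouse dendrites, 45 of 45 in rat dendrites and 18 of 20 in rat somas, whereas intron 1 held 232 of 406 in mouse somas. Intron numbers can differ between gene models.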

How the results depend on the processing

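No paired analysis was possible because each condition is 1 pooled list, and for the same reason no library could be left out. With introns of at least 8 reads, the member introns fell to 48 in rat dendrites and 36 in rat somas. With a threshold of 32 reads in 1 intron, 40, 32, 18, 16, 49 and 41 members passed in mouse dendrites, mouse somas, rat dendrites, rat somas, BAT cells and cardiomyocytes. With contigs of at most 400 nt, 5 passed the 256-read threshold in mouse somas, 3 in rat somas, 19 in BAT cells and 13 in cardiomyocytes, and 5 members were past 4-fold in favour of rat somas. With the same limit member reads fell to 9865 in mouse somas, 4519 in rat somas, 46526 in BAT cells and 64093 in cardiomyocytes, and the member share of reads rose to 0.719% in rat dendrites, where the limit was added after seeing the data, against 0.730% in rat somas. These sums hold the full reads of each intron that kept a contig. At 2-fold, 14 of 30 members were higher in rat dendrites (47.1% of all genes) and 11 in rat somas (32.3%). Counting introns as shared only where contigs overlapped, 39.1% of member introns and 25.5% of all introns were in at least 2 mouse lists. On exons of nonsense-mediated decay or retained-intron transcripts alone lay 1.07%, 0.741%, 2.23% and 4.21% of member contigs in mouse dendrites, mouse somas, BAT cells and cardiomyocytes, against 2.55%, 5.33%, 4.06% and 6.08% of all contigs. Tracts of at least 8 adenines were in 42.2% of listed and 26.7% of other member introns, against 51.0% and 25.6% for all genes. With words of 20 bases, contigs without a copied word were 2.14%, 2.22%, 7.26% and 6.84% in the same mouse lists. The direction of these changes is set by construction (fewer introns or contigs kept, a lower limit, a shorter tract or word), except for the 400-nt limit on the 4-fold count and on the read shares, where the cause was not tested. The other 93 recomputed summary values stayed within the limits set for a change (for counts, 1.5 times), and of the values for motifs, read sums and read shares 57 stayed and 11 moved. In whole contigs 9 of 36 motif shares changed sides against all contigs. Among them GCTTGC in mouse somas went from 3.70% against 6.79% to 12.6% against 8.64%, TGCATG there from 8.89% against 10.6% to 16.3% against 13.4%, GCTTGC in cardiomyocytes from 5.26% against 6.58% to 10% against 8.69%, and TTTATTT in BAT cells from 17.3% against 17.8% to 24.6% against 21.0%.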
